A study of Bos grunniens with 24 samples.

Results

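GZMA, GZMM and KLRF1 are 3 genes of cytotoxic lymphocytes, the T cells and natural killer (NK) cells that kill other cells. They were taken from a table of 639 genes by symbol, and each symbol matched 1 row. The RNA came from jejunum, the middle stretch of the small intestine, of yak calves (Bos grunniens), in 3 groups of 8 libraries. PET calves were pretreated with the lactic acid bacterium P. pentosaceus NQ0729 and then challenged with ETEC, enterotoxigenic Escherichia coli, a cause of diarrhoea in young ruminants. ETEC calves had the challenge without the bacterium, and CON calves were the control group with neither. Tissue was taken when the trial ended. The sources used here do not give age, sex, doses or the site along the jejunum. The labels number the samples within each group without naming animals, so the p-values speak to the spread among these samples, which may be partly technical.

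Killer lymphocytes hold granules filled with perforin, which opens the target cell's membrane, and with granzymes, serine proteases that enter through it. Granzyme A (GZMA) cuts proteins after basic residues, and granzyme M (GZMM) after methionine or leucine. KLRF1 encodes NKp80, a C-type lectin-like receptor that in humans activates NK cells when it meets its ligand AICL on another cell. In the small intestine such cells sit largely among the epithelial cells, as intraepithelial lymphocytes, and in the tissue below.

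In the coordinates of the authors' table, whose genome build the sources used here do not give, GZMA (ENSBGRG00000021322) lies on chromosome 23 from 60377414 to 60385660. GZMM (ENSBGRG00000005422) lies on chromosome 8 from 46674098 to 46679530, and KLRF1 (ENSBGRG00000018456) on chromosome 5 from 1682876 to 1693031. All 3 are annotated on the plus strand. Every gene in the table was called by the authors in at least 1 of the 3 comparisons, so the 3 genes are present because they differed somewhere in these same libraries, and the tests below are not independent of that choice.

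The libraries had features that the group labels do not name. Counts summed over the listed genes were 475295 to 1209769 in PET, 466708 to 863801 in ETEC and 299776 to 826249 in CON, and relative depth was 0.834 to 1.30 in PET, 0.848 to 1.501 in ETEC and 0.718 to 1.10 in CON. In 10 libraries (PET-1 to PET-3, ETEC-1 to ETEC-4 and CON-1 to CON-3) a weighted sum of 2 libraries of the same group fitted the listed genes clearly better than any 1 library. These are called close to a sum, though only the gain over 1 library was measured. In PET-1 the sum was mostly PET-4, with weights of 0.770 for PET-4 and 0.0917 for PET-5. Relative to the best fit from 1 library, such a sum left a residual of 0.254 to 0.703 in these 10, against 0.836 to 1 in the other 14. Tests over 8 libraries per group treat all of them as independent, so results are also given for the other 14 (5 PET, 4 ETEC and 5 CON), called the 14 remaining libraries. The Y-linked gene USP9Y had counts in 7 of 8 PET libraries, 7 of 8 ETEC libraries and 0 of 8 CON libraries, and its part in differences from CON cannot be told apart from the challenge.

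GZMA was the most abundant of the 3. It was the most variable of them in PET and CON, with coefficients of variation of 89.9% and 66.0%, and the least variable in ETEC, with 14.7%. In PET libraries 1 to 8 it stood at 103.1, 18.57, 18.33, 128.1, 73.53, 20.69, 19.34 and 19.20 FPKM, read fragments scaled by gene length and by the mapped fragments of the library. In ETEC libraries 1 to 8 it was at 18.37, 17.28, 20.06, 20.44, 19.20, 18.30, 12.23 and 16.35 FPKM. The CON libraries 1 to 8 gave 61.75, 47.19, 28.53, 18.04, 90.50, 35.74, 16.93 and 17.28 FPKM. Levels thus fell into a narrow band below 21 FPKM, which held 5 PET, all 8 ETEC and 3 CON libraries, and a scattered upper range that held PET-1, PET-4 and PET-5 and 5 CON libraries. The mean was 50.1 ± 45.1 FPKM in PET, 17.8 ± 2.62 FPKM in ETEC and 39.5 ± 26.1 FPKM in CON (SD, n = 8 each). By median the order was different, with 20.0 FPKM in PET, 18.3 FPKM in ETEC and 32.1 FPKM in CON. Read counts behind these values were 376 to 4108 in PET, 255 to 740 in ETEC and 299 to 1835 in CON, so counting error is small beside the spread between libraries.

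GZMM was lower, and its coefficient of variation was 33.5% in PET, 26.7% in ETEC and 28.9% in CON. In PET libraries 1 to 8 it had 5.713, 5.394, 3.230, 4.633, 8.709, 5.489, 6.538 and 3.185 FPKM. The ETEC libraries 1 to 8 had 2.524, 1.878, 3.401, 3.479, 2.101, 3.722, 3.610 and 4.169 FPKM. In CON libraries 1 to 8 the values were 9.015, 6.524, 6.874, 4.304, 9.061, 8.194, 3.922 and 6.276 FPKM. ETEC was the lowest group, with all 8 libraries at or below 4.169 FPKM, a level that PET-3, PET-8 and CON-7 also did not exceed. The means were 5.36 ± 1.80 FPKM in PET, 3.11 ± 0.832 FPKM in ETEC and 6.77 ± 1.96 FPKM in CON (SD, n = 8 each), from 66 to 229, 52 to 125 and 69 to 243 reads per library in these groups.

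KLRF1 was the scarcest, and its order of groups was another one. PET libraries 1 to 8 had 0.4599, 0.9658, 0.2708, 0.6236, 1.179, 0.4673, 0.918 and 0.6494 FPKM. ETEC libraries 1 to 8 had 0.9314, 1.385, 1.385, 1.780, 1.118, 1.772, 1.279 and 1.049 FPKM. CON libraries 1 to 8 had 2.094, 1.333, 2.494, 1.780, 2.192, 1.548, 1.950 and 1.805 FPKM. No PET library reached the level of any CON library, while ETEC lay between and overlapped both. The mean was 0.692 ± 0.305 FPKM in PET, 1.34 ± 0.314 FPKM in ETEC and 1.90 ± 0.368 FPKM in CON (SD, n = 8 each). These levels rest on 5 to 28 reads in PET, 24 to 55 in ETEC and 24 to 59 in CON. The 5 reads of PET-3, for example, have an exact 95% Poisson interval of 1.62 to 11.7 reads, or 0.0879 to 0.632 FPKM, which covers counting error only, since reads amplified by PCR are not independent molecules.

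**Figure D1:**
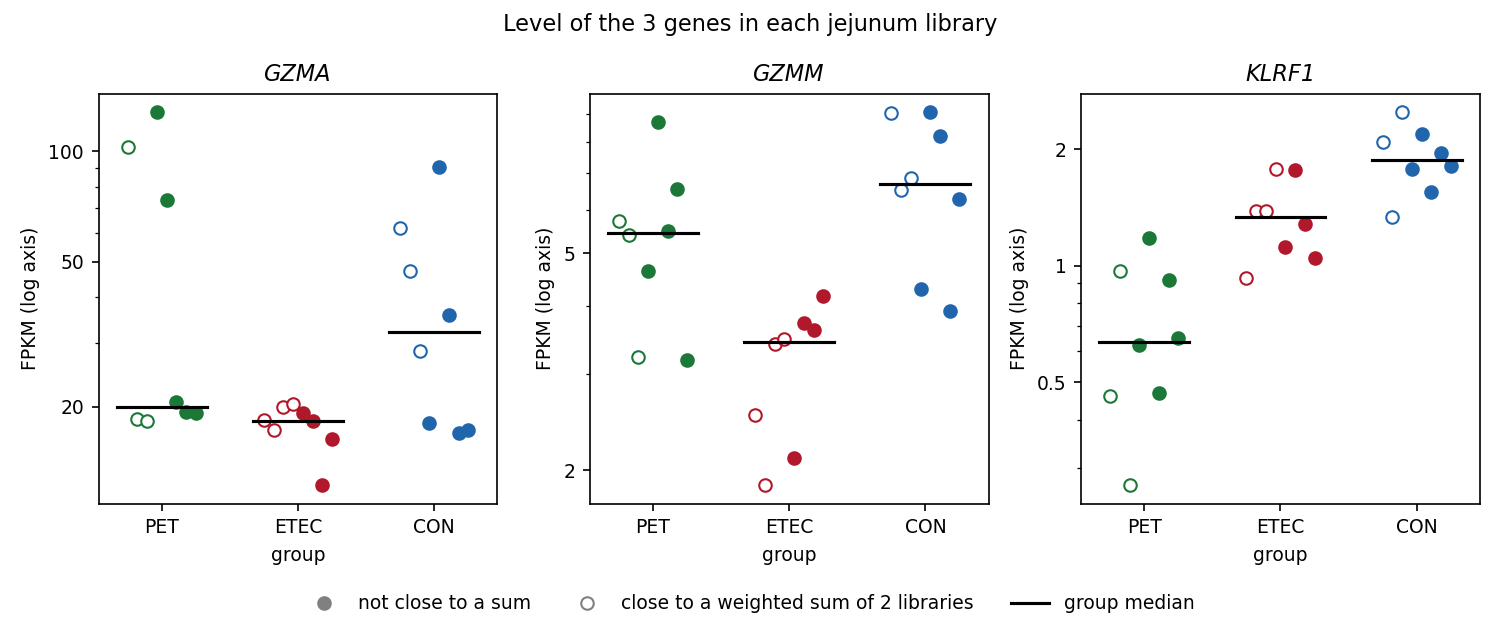
Level of GZMA, GZMM and KLRF1 in each library (FPKM, log axis) by group, with the group median as a bar; open circles are the 10 libraries that a weighted sum of 2 others comes close to. GZMA is scattered in PET and CON and within 12.2 to 20.4 FPKM in ETEC, GZMM is lowest in ETEC, and the PET and CON ranges of KLRF1 do not overlap.

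The comparison of challenged with control calves showed both granzymes lower in ETEC. GZMA fell by 1.15 ± 0.46 on the log2 scale (SE; adjusted p = 0.0313) and GZMM by 1.12 ± 0.26 (adjusted p = 0.00171), 2.22-fold and 2.18-fold lower in ETEC than in CON by edgeR's quasi-likelihood test with Benjamini-Hochberg adjustment over 577 genes and depth taken from count over FPKM. The authors called GZMM in this comparison alone, so that gene is in the table through this same difference. They called GZMA lower here and higher in PET vs ETEC, so its tests in both comparisons are not independent of those calls. KLRF1 did not pass, with a log2 fold change of -0.50 ± 0.26 (SE; adjusted p = 0.0834). Of all genes tested 41.2% fell and 29.6% rose, 70.9% in either direction, with a median log2 fold change of -0.634, so 2 falls among 3 genes stand in a table where most genes were called. Exact two-sided permutation tests of log2(FPKM + 0.1) over the libraries, 9 in all for 3 genes and 3 comparisons and unadjusted, gave p = 0.0166 for GZMA, p = 0.000311 for GZMM and p = 0.00668 for KLRF1. In bulk tissue, fewer cells of a type and less RNA per cell cannot be told apart.

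These falls depend on the scaling and on the libraries used. With TMM scaling, which moved the median log2 fold change of all genes in this comparison by 0.613, 51.4% of genes were called, GZMA was at -0.40 (adjusted p = 0.274) and GZMM at -0.48 (adjusted p = 0.104). KLRF1 changed sign, to 0.09 (adjusted p = 0.778). GZMA did not pass without ETEC-7, CON-1 or CON-5, each left out in turn, with values of -1.26 to -0.86 over all 16 such fits and a highest adjusted p of 0.0969. On the 14 remaining libraries edgeR called 0.00% of all genes (153 of 578 at an unadjusted p under 0.05; DESeq2 called 79 and limma voom 1), with GZMA at -1.11 (adjusted p = 0.252), GZMM at -0.90 (adjusted p = 0.198) and KLRF1 at adjusted p = 0.328. The exact permutation tests on these 4 ETEC and 5 CON libraries gave p = 0.238 for GZMA and p = 0.0317 for both GZMM and KLRF1, where 0.0159 is the smallest p possible.

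Pretreated and challenged calves were next set against calves challenged alone, the comparison that bears on the bacterium. The granzymes rose in PET, GZMA by 1.495 ± 0.47 on the log2 scale (SE; adjusted p = 0.0122), 2.82-fold higher, and GZMM by 0.78 ± 0.26 (adjusted p = 0.0163), 1.72-fold higher than in ETEC (edgeR). KLRF1 moved the other way and fell by 0.95 ± 0.27 (SE; adjusted p = 0.00752), 1.93-fold lower in PET than in ETEC. GZMA is in the table in part because the authors called it in this comparison, so its tests here are not independent of that choice. Among all genes tested 35.9% rose and 11.1% fell (47.0% in either direction), with a median of 0.448. The exact permutation tests gave p = 0.0235 for GZMA, p = 0.00513 for GZMM and p = 0.0014 for KLRF1. The high GZMA values were those of PET-1, PET-4 and PET-5, and the other 5 PET libraries lay at 18.3 to 20.7 FPKM, against 12.2 to 20.4 FPKM in ETEC.

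TMM moved this comparison by a median of -0.623 and called 28.0% of genes. The granzymes then did not pass, with GZMA at 0.58 (adjusted p = 0.164) and GZMM at 0.17 (adjusted p = 0.609), whereas KLRF1 was lower still, at -1.55 (adjusted p = 0.000931). Over the 14 remaining libraries edgeR again called 0.00% of all genes (163 of 578 at an unadjusted p under 0.05; DESeq2 called 88 and limma voom 0), and the adjusted p was 0.166 for GZMA, 0.262 for GZMM and 0.215 for KLRF1. On those 5 PET and 4 ETEC libraries the exact permutation p was 0.0159 for GZMA, the smallest possible, with PET wholly above ETEC, as for 2.35% of the listed genes. The gap was slight, since the lowest PET library (PET-8) and the highest ETEC library (ETEC-5) both round to 19.2 FPKM. The exact permutation p was 0.0952 for GZMM and 0.0476 for KLRF1.

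Between pretreated and control calves, KLRF1 was the gene of the 3 that changed. KLRF1 is in the table only because the authors called it in this comparison, so its tests below are not independent of that choice. It fell by 1.45 ± 0.27 on the log2 scale (SE; edgeR adjusted p = 0.000298), 2.73-fold lower in PET than in CON, and the exact permutation test gave p = 0.000155, the smallest possible. All 8 PET libraries, at 0.271 to 1.18 FPKM, lay below all 8 CON libraries, at 1.33 to 2.49 FPKM, which 2.03% of the listed genes did in this direction, while 15.3% of genes tested fell and 26.2% rose by adjusted p (41.4% in either direction, median 0.405). TMM, which called 38.8% of genes here, gave -1.46 (adjusted p = 0.000622), and over the fits that left out 1 library each the value was -1.60 to -1.33. Over the 5 PET and 5 CON remaining libraries the ranges again did not overlap, at 0.467 to 1.18 FPKM in PET and 1.55 to 2.19 FPKM in CON (2.82% of listed genes), with an exact permutation p of 0.00794, the smallest possible. With edgeR the value on the 14 remaining libraries was -1.27 with adjusted p = 0.0912, and 1.73% of all genes were called; DESeq2, tried after the data had been seen, gave adjusted p = 0.0119 and limma voom 0.178.

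The granzymes did not pass between PET and CON. GZMA had a log2 fold change of 0.34 ± 0.46 (SE; edgeR adjusted p = 0.575) and GZMM of -0.34 ± 0.26 (adjusted p = 0.301), with exact permutation p of 0.846 and 0.160. The value for GZMA turned to -0.02 without PET-4. Ordered by level over all 24 libraries and with depth from count over FPKM, GZMA therefore has no order between PET and CON beyond the spread, GZMM has ETEC below both with PET and CON not separated, and KLRF1 has PET below both. As the 3 comparisons share libraries, they are not independent of each other.

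In the authors' deposited table, GZMA was called lower in ETEC vs CON (log2 fold change -1.09, adjusted p = 0.00619) and higher in PET vs ETEC (1.495, adjusted p = 0.0261). GZMM was called there in ETEC vs CON alone (-1.07, adjusted p = 5.91e-06), since its 0.78 in PET vs ETEC (adjusted p = 0.00936 in the authors' deposited table) was below the 2-fold limit that their calls keep to. KLRF1 was called in PET vs CON alone (-1.41, adjusted p = 4.22e-06), with -0.96 in PET vs ETEC (adjusted p = 0.00979) below the same limit of the authors' deposited table. Their calls took in 42.4% of the listed genes as lower in ETEC vs CON, 27.4% as higher in PET vs ETEC and 12.8% as lower in PET vs CON. Over all genes the log2 fold changes of the authors' deposited table lay a median of 0.059, -0.00704 and 0.0496 above those given here, in the order ETEC vs CON, PET vs ETEC and PET vs CON.

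**Figure D2:**
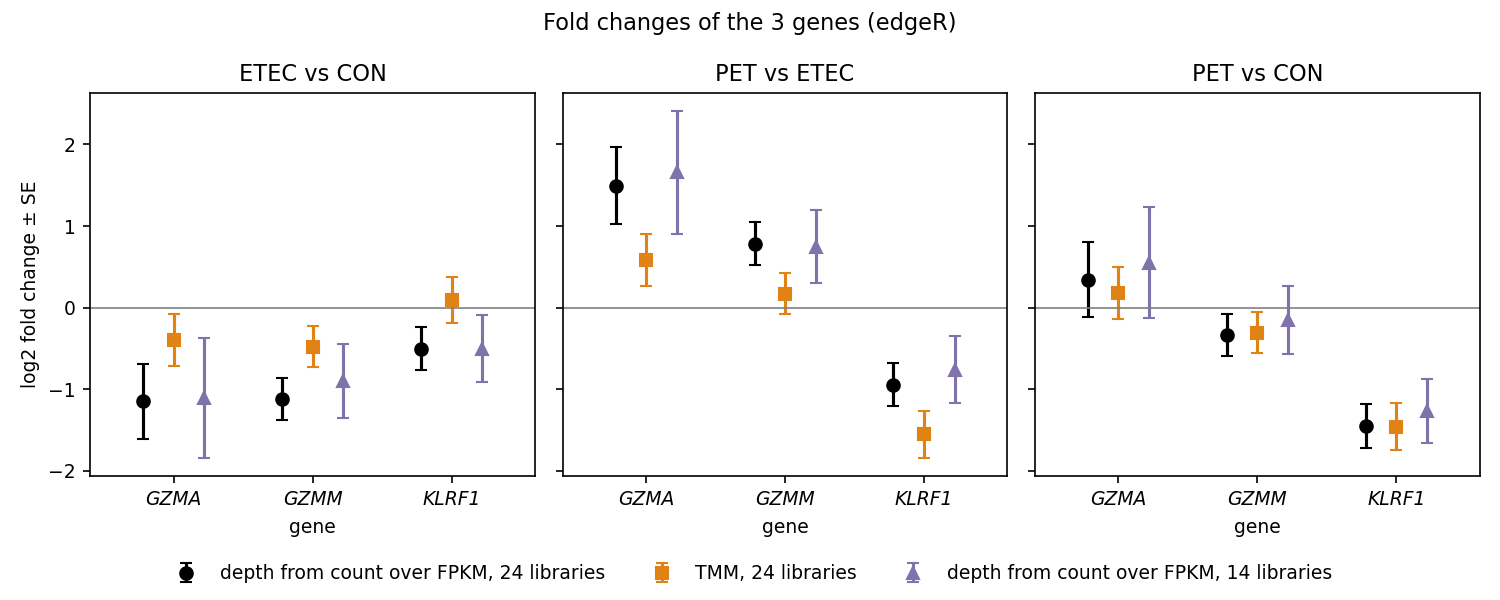
Log2 fold changes ± SE (edgeR) of the 3 genes in ETEC vs CON, PET vs ETEC and PET vs CON, with depth from count over FPKM (black), with TMM (orange) and over 14 libraries (violet). TMM brings the granzymes towards 0 in ETEC vs CON and PET vs ETEC and KLRF1 past 0 in ETEC vs CON, and KLRF1 in PET vs CON stays between -1.46 and -1.27.

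Ratios between 2 genes within a library do not depend on how the libraries are scaled against each other in the count test. They were tested as log2 ratios of FPKM + 0.1, so the values depend on that pseudocount where KLRF1 is low. The differences below are on that scale, while the medians and ranges are plain ratios. GZMM per KLRF1 had a median of 7.41 in PET (4.90 to 12.4), 2.28 in ETEC (1.36 to 3.98) and 3.81 in CON (2.01 to 5.29), as ratios of FPKM. No PET library had a ratio as low as any ETEC library. How many other gene pairs separate these groups in this way was not computed. As GZMM rose and KLRF1 fell in PET vs ETEC above, the ratio in part restates those results. The ratio was 3.20-fold higher in PET than in ETEC (log2 difference 1.68, exact permutation test, p = 0.0014 after adjustment over 9 ratio tests, higher in 8 of 8 PET libraries than in every ETEC library). Against CON it was 2.10-fold higher in PET (log2 difference 1.07, adjusted exact permutation p = 0.00187). Both differences held over the 14 libraries, at 1.43 and 1.07 with an adjusted exact permutation p of 0.0476 each. In PET vs CON GZMM did not pass and KLRF1 fell. The ratio there in part restates that fall, which put KLRF1 in the table.

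GZMA per KLRF1 had a median of 53.3 in PET (19.2 to 224), 13.5 in ETEC (9.56 to 19.7) and 17.3 in CON (8.68 to 41.3). It was 3.84-fold higher in PET than in ETEC (log2 difference 1.94, adjusted exact permutation p = 0.0014; 1.92 and 0.0476 over the 14 libraries). The difference from CON was 1.52 (adjusted exact permutation p = 0.0399), but 1.64 with an adjusted p of 0.125 over the 14. It missed the threshold too without PET-1, PET-3, PET-4, PET-5, CON-3, CON-4, CON-7 or CON-8, each left out alone (adjusted exact permutation p up to 0.0638). With a pseudocount of 1 it was 0.89 (adjusted exact permutation p = 0.177). GZMA rose and KLRF1 fell in PET vs ETEC, and of the 3 genes only KLRF1 passed in PET vs CON. The GZMA per KLRF1 ratios in those comparisons in part restate these results. In ETEC vs CON the ratio of GZMM to KLRF1 was lower by a log2 difference of -0.60 (adjusted exact permutation p = 0.0439), which over the 14 libraries was -0.35 (adjusted p = 0.629). It also missed the threshold when any of ETEC-2 to ETEC-6, CON-1 to CON-3, CON-5, CON-6 or CON-8 was left out (adjusted exact permutation p up to 0.0862). GZMA per KLRF1 in ETEC vs CON (adjusted p = 0.365) and GZMA per GZMM in all 3 comparisons (adjusted exact permutation p of 0.453 to 0.566) did not pass.

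**Figure D3:**
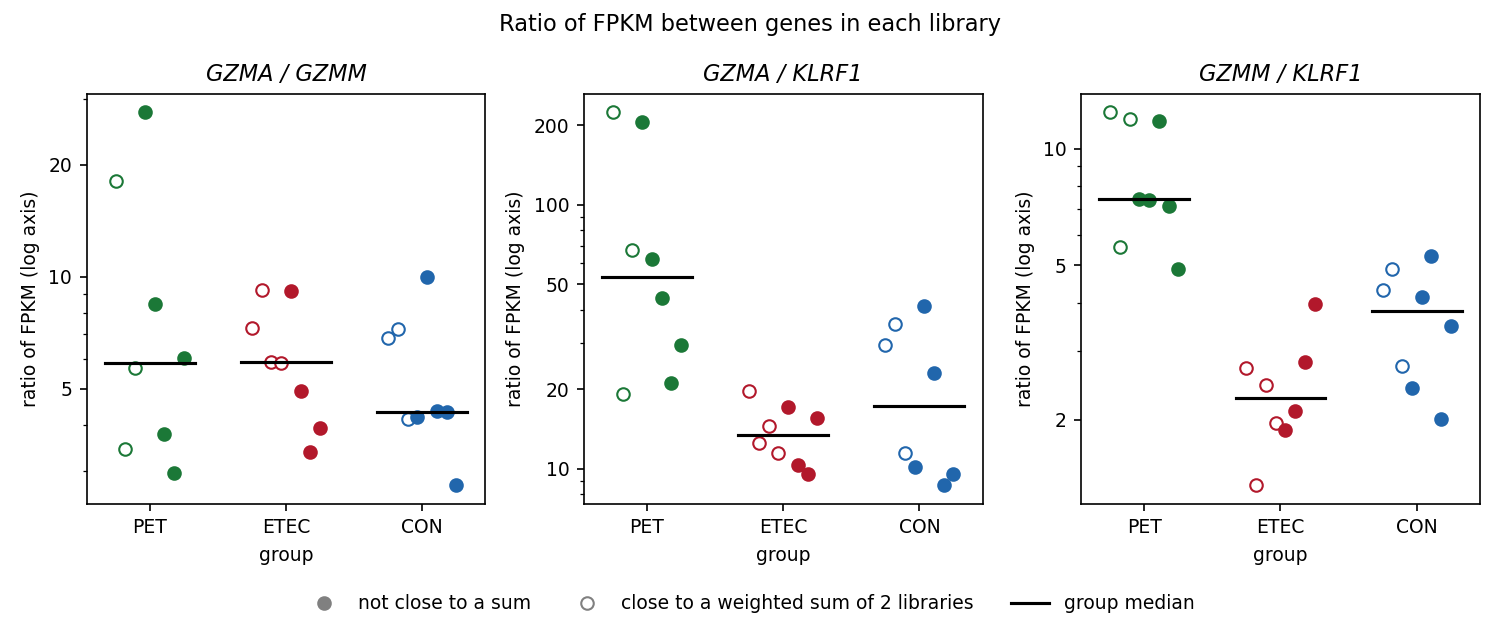
Ratio of FPKM between 2 of the 3 genes within each library (log axis) by group, with the group median as a bar and open circles for the 10 libraries close to a sum. For GZMM over KLRF1 every PET library (4.90 to 12.4) lies above every ETEC library (1.36 to 3.98), while GZMA over GZMM overlaps in all groups. The share of other gene pairs that separate in this way was not computed.

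Epithelial genes varied strongly among the same libraries. Of 34 genes of the enterocyte, the absorptive cell that carries the brush border, 19 are in the table, and 17 of them had reads in every library; the peptidase CPO was at 0 in 4 ETEC and 1 CON library and TMIGD1 in 1 ETEC library. Their summed level was 152 to 2793 FPKM in PET, 215 to 275 FPKM in ETEC and 135 to 1340 FPKM in CON. By edgeR 1 of the 19 rose and 14 fell in ETEC vs CON, 17 rose and 0 fell in PET vs ETEC, and 3 rose and 0 fell in PET vs CON. Of all genes tested 29.6% rose and 41.2% fell in ETEC vs CON, 35.9% and 11.1% in PET vs ETEC, and 26.2% and 15.3% in PET vs CON. With TMM the counts were 2 and 13, 15 and 0, and 2 and 0 in these comparisons, and over the 14 libraries edgeR called 0 of the 19 in each, with 9, 15 and 1 at an unadjusted p under 0.05.

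GZMA was above 25 FPKM in 8 libraries, and each of these had an enterocyte sum of at least 641 FPKM. PET-1, PET-4 and PET-5, with sums of 2142, 2368 and 2793 FPKM, had the 103, 128 and 73.5 FPKM of GZMA given above, and CON-5, the CON library with the highest sum (1340 FPKM), had 90.5 FPKM. CON-4, CON-7 and CON-8, with sums of 190, 175 and 135 FPKM, had 18.0, 16.9 and 17.3 FPKM of GZMA, within the ETEC range. The converse did not hold in PET-7, whose sum of 853 FPKM went with 19.3 FPKM of GZMA. PET-2, with a sum of 556 FPKM, had 18.6 FPKM. Between groups KLRF1 did not follow the sum in this way, with 0.460, 0.624 and 1.18 FPKM in PET-1, PET-4 and PET-5 and 1.78, 1.95 and 1.81 FPKM in CON-4, CON-7 and CON-8. That contrast also holds the difference between PET and CON. Within groups the values were mixed. In PET, PET-5 was highest and PET-3 (sum 213 FPKM) lowest at 0.271 FPKM, yet PET-1 had 0.460 FPKM. In CON, CON-5 and CON-1 (sum 1155 FPKM) had 2.19 and 2.09 FPKM, yet CON-2 and CON-6 (sums of 722 and 773 FPKM) had 1.33 and 1.55 FPKM. For GZMM, CON-5, CON-1 and PET-5 had 9.061, 9.015 and 8.709 FPKM. PET-3, PET-8 (sum 270 FPKM) and CON-7 had 3.230, 3.185 and 3.922 FPKM. Against this order, PET-4 had 4.633 FPKM, PET-6 (sum 152 FPKM) 5.489 FPKM and CON-8 6.276 FPKM. The part of these epithelial differences in the results for the granzymes was not tested.

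**Figure D4:**
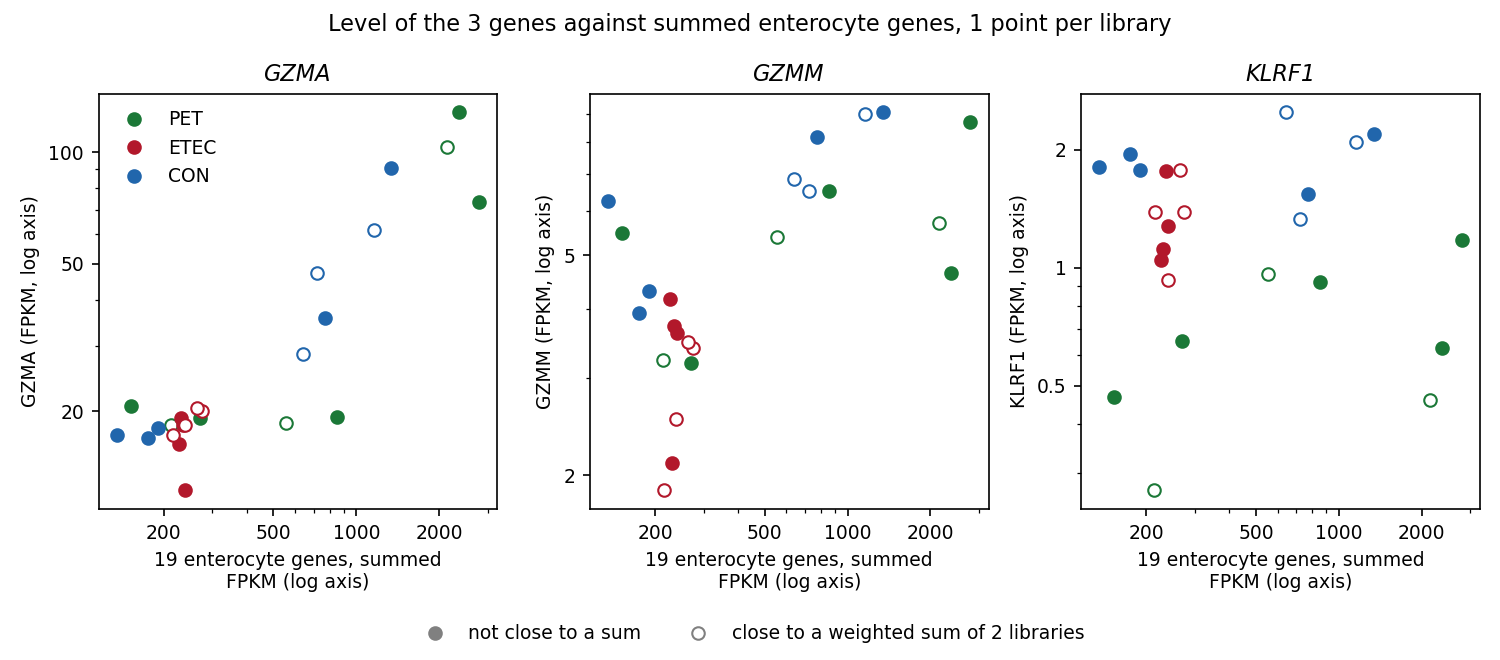
Level of GZMA, GZMM and KLRF1 (FPKM, log axis) against the summed level of 19 enterocyte genes (FPKM, log axis), 1 point per library, coloured by group, with open circles for libraries close to a sum. The libraries with GZMA above 25 FPKM have a sum of at least 641 FPKM, PET-7 has a sum of 853 FPKM with GZMA at 19.3 FPKM, and for KLRF1 the PET libraries lie below the CON libraries at low and high sums alike.

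Other cytotoxic genes are little represented. Of 37 genes of cytotoxic T and NK cells, 4 are in the table, the 3 described here and KLRF2. Perforin and granzyme B are among those not analysed here. Also not analysed are the CD3 chains, from a separate list of T cell genes, and all 25 genes of cytotoxic cell attraction and activation. Interleukin-15 and the ligand gene CLEC2B are among these 25. KLRF2, a receptor gene of the same family on the same chromosome, had 0.665 FPKM in ETEC-1, 0.994 in ETEC-3 and 1.33 in ETEC-6 (41, 79 and 72 reads). In the other 21 libraries it was at most 0.105 FPKM (0 to 4 reads). It did not pass the filter on low counts and was not tested, and ETEC-1 and ETEC-3 are both close to sums that include ETEC-6. In the authors' deposited table KLRF2 is called higher in ETEC vs CON (3.95, adjusted p = 0.00603) and lower in PET vs ETEC (-3.65, adjusted p = 0.0291).

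Markers of other immune cells reported here were few, namely the B cell gene IGHM, the macrophage gene TREM2 and the neutrophil genes LTF, MPO and MMP9. IGHM, the heavy chain of immunoglobulin M, fell in PET vs CON (-1.05, edgeR adjusted p = 0.00411) and in PET vs ETEC (-0.96, adjusted p = 0.00682), with 1399 ± 320.5 FPKM in PET, 2723 ± 838.9 FPKM in ETEC and 2891 ± 1340 FPKM in CON (SD, n = 8 each). TREM2 rose in PET vs CON (1.02, edgeR adjusted p = 0.00214) and in ETEC vs CON (0.81, adjusted p = 0.00633). In ETEC vs CON, where the granzymes fell, LTF, which encodes lactoferrin, also fell (-1.57, edgeR adjusted p = 0.00705; adjusted p = 0.0311 with TMM), as did the myeloperoxidase gene MPO (-1.49, adjusted p = 0.0146; adjusted p = 0.119 with TMM). MMP9 did not pass there (-1.09, edgeR adjusted p = 0.0723), and in PET vs ETEC none of the 3 neutrophil genes passed (edgeR adjusted p of 0.0931 to 0.507, unadjusted p under 0.05 for MPO). Beside these calls, 41.2% of all genes tested fell and 29.6% rose in ETEC vs CON. The shares were 11.1% and 35.9% in PET vs ETEC and 15.3% and 26.2% in PET vs CON. The part of neutrophils in the granzyme results was not tested.

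A further 16 loci have no symbol, but the authors' protein similarity text likens them to T or NK cell genes; they were picked by that text after it had been read. They comprise 8 T cell receptor segments, 3 loci like KLRD1 (CD94, the partner chain of the NKG2 receptors), and 1 each like KLRA, NKG2A, a killer immunoglobulin-like receptor (KIR), CD7 and NK-lysin, a granule peptide of cattle. In ETEC vs CON 0 of 16 rose and 12 fell, with a median log2 fold change of -1.26 against -0.634 over all genes tested, of which 29.6% rose and 41.2% fell. In PET vs ETEC 8 rose and 0 fell (median 1.05 against 0.448), beside 35.9% and 11.1% of all genes tested. In PET vs CON 1 rose and 4 fell (median -0.21 against 0.405), beside 26.2% and 15.3%. With TMM, 1 rose and 4 fell in ETEC vs CON, 1 rose and 1 fell in PET vs ETEC, and 1 rose and 5 fell in PET vs CON. Over the 14 libraries edgeR called 0 of the 16 in each comparison, with 5, 3 and 2 at an unadjusted p under 0.05. Near-identical copies are common in these receptor families and shared reads may be split between them, so the values of single loci are uncertain.

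The loci followed the 3 named genes in unlike ways. The KLRD1-like ENSBGRG00000021021 had 52.7, 67.7 and 25.8 FPKM in PET-1, PET-4 and PET-5, where GZMA was also high, and 0.677 to 2.33 FPKM in the other 5 PET libraries, against 1.32 to 3.43 FPKM in ETEC and 4.97 to 38.1 FPKM in CON. It fell by 2.71 ± 0.84 in ETEC vs CON (SE; edgeR adjusted p = 0.00907) and rose by 3.08 ± 0.85 in PET vs ETEC (adjusted p = 0.00678), with both calls also made under TMM. The KLRD1-like ENSBGRG00000020643 was at 5.43 to 8.52 FPKM in PET, 4.01 to 8.89 FPKM in ETEC and 13.2 to 24.5 FPKM in CON, so both challenged groups lay wholly below CON; 5.16% of listed genes did so in ETEC vs CON and the 2.03% given above in PET vs CON. Its log2 fold change was -1.25 ± 0.23 in PET vs CON (SE; edgeR adjusted p = 0.00032) and -1.29 ± 0.23 in ETEC vs CON (adjusted p = 0.000226), and 0.04 in PET vs ETEC (adjusted p = 0.906).

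The KIR-like ENSBGRG00000017516 fell in PET vs CON (-1.05, edgeR adjusted p = 0.0169) and in ETEC vs CON (-1.85, adjusted p = 0.000308), with 0.509 to 2.17 FPKM in PET, 0.408 to 0.954 FPKM in ETEC and 1.15 to 3.71 FPKM in CON. NK-lysin-like ENSBGRG00000004722 was the locus that rose in PET vs CON (0.99 ± 0.37, SE; edgeR adjusted p = 0.0349), at 44.6 to 296 FPKM in PET, 36.8 to 155 FPKM in ETEC and 36.0 to 91.5 FPKM in CON. With TMM this rise was also called (1.22, edgeR adjusted p = 0.0252). TMM further called the NK-lysin-like locus higher in ETEC vs CON (1.03, adjusted p = 0.0415), which the main scaling did not (0.42, adjusted p = 0.286). The CD7-like ENSBGRG00000006053 fell in ETEC vs CON (-1.27, edgeR adjusted p = 0.0269) and rose in PET vs ETEC (1.44, adjusted p = 0.0207), both calls that TMM did not make (adjusted p = 0.170 and 0.273), at 50.3 ± 49.3 FPKM in PET, 18.6 ± 4.56 FPKM in ETEC and 44.9 ± 28.6 FPKM in CON (SD, n = 8 each). In the authors' coordinates KLRF1, KLRF2, the 3 KLRD1-like loci, the KLRA-like and the NKG2A-like locus all lie on chromosome 5 between 1682876 and 2657891, and in PET vs ETEC KLRF1 fell, while the KLRD1-like ENSBGRG00000021021, the KLRA-like (2.27, edgeR adjusted p = 0.00912) and the NKG2A-like locus (1.13, adjusted p = 0.0137) rose. The rises of the KLRA-like and NKG2A-like loci were not called with TMM (adjusted p = 0.0789 and 0.375). The other 2 KLRD1-like loci did not pass and KLRF2 was not tested.

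**Figure D5:**
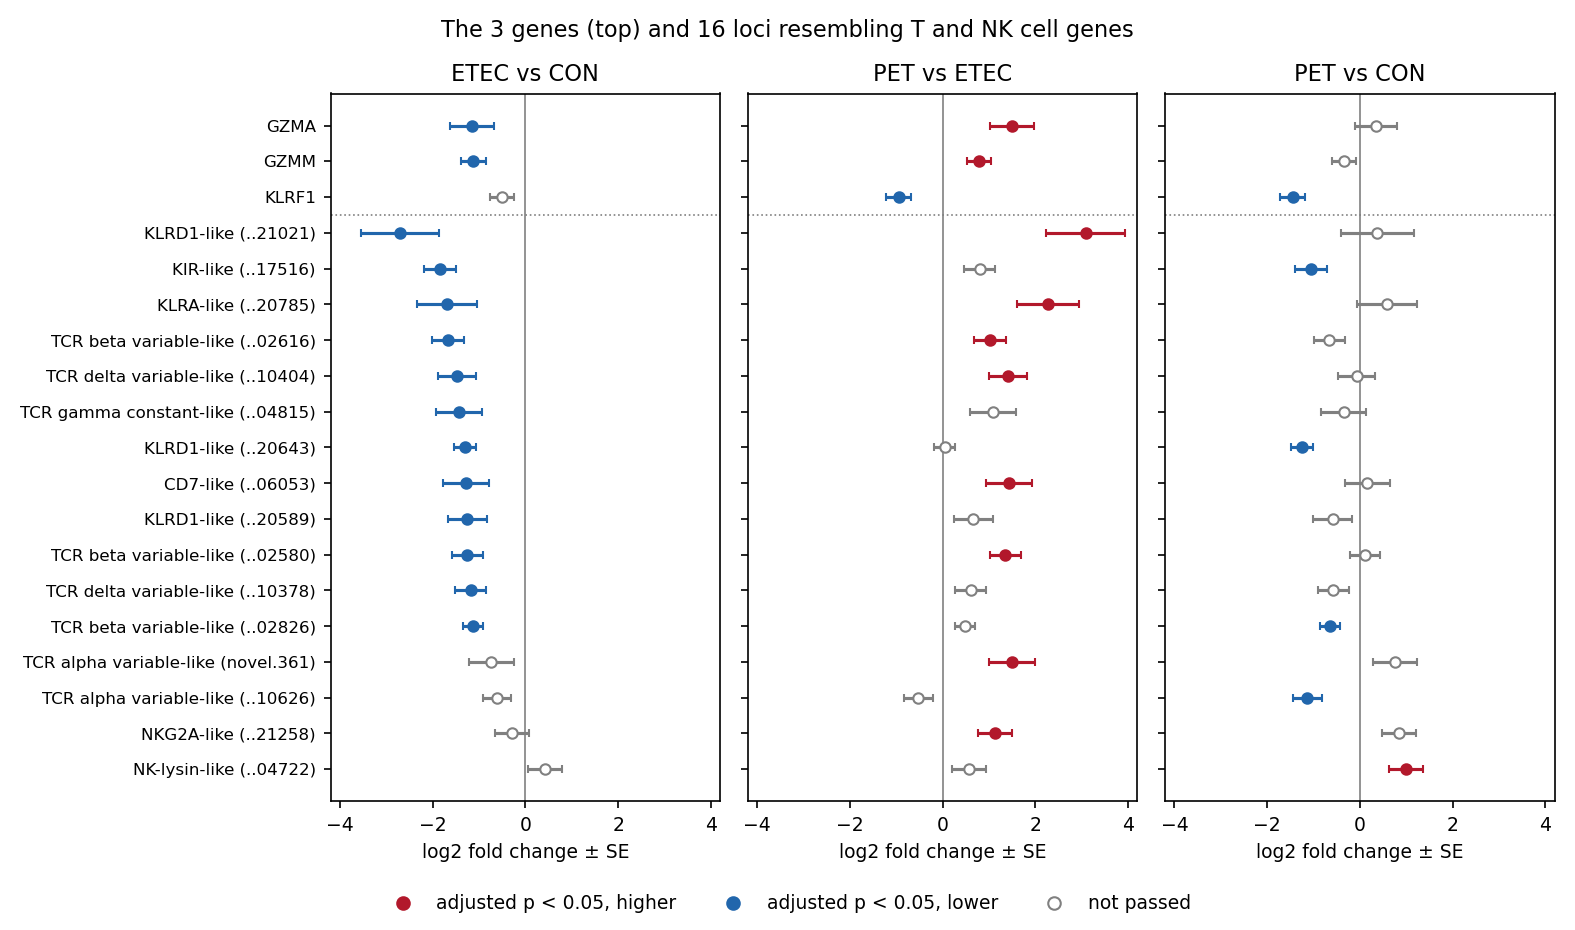
Log2 fold changes ± SE (edgeR, depth from count over FPKM) of the 3 genes, above the dotted line, and of 16 loci resembling T and NK cell genes, labelled by the end of their identifier. In ETEC vs CON 12 of the 16 loci are lower at adjusted p below 0.05, beside 41.2% of all genes tested. In PET vs ETEC 8 are higher, beside 35.9% of all genes, and KLRF1 is lower, and in PET vs CON 4 are lower and 1 is higher, beside 15.3% and 26.2% of all genes.

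The genes most like each of the 3 across libraries differed. Likeness was Pearson's r of log2(FPKM + 0.1) after subtracting group means, over the 14 remaining libraries, for 163 genes that have a symbol and average 1 FPKM or more; all points share library depth and scaling, and no p is given. Among these, GZMA was closest to FGR, a tyrosine kinase gene of blood cells (r = 0.962), to TMEM37 (0.943) and to AOC1, which encodes diamine oxidase (0.920). The genes closest to GZMM were CCL26, an eosinophil attractant (0.851), MESP2 (0.816) and MBOAT1 (0.810). For KLRF1, with 10 to 40 reads in these libraries, they were NRAP (0.790), COL17A1 (0.688) and PITPNM3 (0.683). All these r are the highest found in a search of 163 genes. How high such a search reaches for unrelated genes was not computed. By ranks (Spearman) COL17A1 was at 0.345, NRAP at 0.710 and PITPNM3 at 0.679. With group means subtracted, likeness leaves out differences between groups. In PET vs ETEC edgeR called NRAP (1.37), COL17A1 (2.53) and PITPNM3 (0.89) higher, as 35.9% of all genes tested, while KLRF1 fell. TMM made none of these calls of a rise. Between the 3 genes themselves r was 0.42 for GZMA and GZMM, 0.25 for GZMA and KLRF1 and 0.40 for GZMM and KLRF1. These pairs were not picked as the highest of a search, so their r cannot be set against those above.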

How the data were processed

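RNA sequencing of 24 jejunum libraries was analysed from 1 table of 639 genes. TRIzol was used for extraction, per the labels' protocols, whose library text speaks of small RNA enrichment, although the values are per gene. The authors deposited raw read counts and, for the same genes and libraries, FPKM values, per the file headers. Per the file headers, the deposited table also holds the authors' log2 fold changes, with a p-value and an adjusted p-value for each of 3 comparisons. The sources used here name no aligner, counter, strand setting, genome build or annotation. With 0 identifiers matching the RefSeq table of Bosgru_T2T1.0, names and coordinates are the authors'.

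The main test was edgeR 4.0.16 under R 4.3.3 (quasi-likelihood, filterByExpr by group, 1 fit over 24 libraries), adjusted over the 577 genes that passed; a call is an adjusted p under 0.05. Library sizes came from count over FPKM (233 genes, 20 or more counts in every library), because the table holds only called genes and TMM presumes that most genes do not change. Exact permutation tests used log2(FPKM + 0.1), with SciPy 1.17.1. Each library was fitted by weighted sums of 2 others (507 genes, 253 pairs), and a residual below 0.8 of that from 1 library marked it as close to a sum. Over 84 pairs within groups chi-square per gene was at least 30.1, above sampling noise in all. Scripts were tested on simulated data. Alternatives used TMM, DESeq2 1.42.0, limma 3.58.1, other filters, pseudocounts and libraries. The 3 genes, the gene lists and the main scaling were chosen with earlier results of these data known. Other genes named are list members in the table, the 3 genes most like each of the 3, and loci chosen by their description; results for 2 genes under this rule are not reported here.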

Additional observations from a re-analysis of the deposited data

Results flagged for a closer look

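A library lay far from the other 7 of its group in 5 of 75 groups of 8 values examined, where chance gives about 1 in 20. In PET-5 the neutrophil genes MMP9 and MPO were apart from the other PET libraries, MMP9 at 104.1 FPKM against 0.680 to 36.6 FPKM and MPO at 1.328 FPKM against 0.0161 to 0.582 FPKM. The TCR beta variable-like ENSBGRG00000002826 stood at 3.487 FPKM in PET-5, against 1.295 to 2.256 FPKM. The KLRD1-like ENSBGRG00000020643 had 24.52 FPKM in CON-5, against 13.21 to 18.2 FPKM. KLRF2 was at 0.1052 FPKM in CON-7 (4 reads), against 0 to 0.0457 FPKM. GZMA, GZMM and KLRF1 had no such library in any group.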

How the results depend on the processing

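Each result was recomputed under other settings. KLRF1 in PET vs CON kept its direction and its call in 25 of 28 alternatives, and GZMM in PET vs CON, not called, did so in 28 of 28. Leaving out the 10 libraries close to a sum moved the number of genes called with edgeR to 0 (ETEC vs CON), 0 (PET vs ETEC) and 10 (PET vs CON), to 11, 0 and 13 with TMM, to 79, 88 and 81 with DESeq2 and to 1, 0 and 3 with limma voom; the last pair of settings was added after the data had been seen. Fewer libraries enter these fits. On all libraries 409, 271 and 239 genes were called, and PET vs ETEC had 162 with TMM and 158 with limma voom, PET vs CON 146 with limma voom and 130 with only the 2 groups compared. The cause of these moves was not tested.

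In ETEC vs CON, GZMA was not called with TMM (-0.40), DESeq2 size factors (-0.59) or limma voom (-0.91), nor on the 14 libraries with edgeR and DESeq2 (-1.11 each), TMM (-0.58) or voom (-0.78). GZMM was not called with TMM (-0.48), nor on the 14 with edgeR and DESeq2 (-0.90 each), TMM (-0.57) or voom (-0.87). KLRF1 reversed to 0.0934 with TMM and was called with DESeq2 (-0.51, adjusted p = 0.0437) and with only the 2 groups (-0.50, adjusted p = 0.0327). In PET vs ETEC, GZMA was not called with TMM (0.58), DESeq2 size factors (0.86) or voom (1.02), nor on the 14 (1.66 with edgeR and DESeq2, 1.09 with TMM, 1.21 with voom). GZMM was not called with TMM (0.17) or DESeq2 size factors (0.38), nor on the 14 (0.75 with edgeR and with DESeq2, 0.37 with TMM, 0.71 with voom). KLRF1 was not called on the 14 (-0.76 with edgeR, -1.15 with TMM, -0.77 with DESeq2, -0.80 with voom). In PET vs CON, KLRF1 was not called on the 14 with edgeR (-1.27), TMM (-1.41) or voom (-1.32).

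Among the exact permutation tests, those of GZMA in ETEC vs CON (-0.78) and GZMM in PET vs ETEC (0.70) missed the threshold on the 14. For ratios, GZMM over KLRF1 in ETEC vs CON missed it with a pseudocount of 0.01 (-0.60) and on the 14 (-0.35), and GZMA over KLRF1 in PET vs CON with a pseudocount of 1 (0.89) and on the 14 (1.64).

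The labels do not say that a replicate number marks a shared animal or batch, and in no comparison did every same-numbered pair correlate above 0.1, so the numbers were not taken to pair the libraries. Same-numbered libraries correlated at -0.115 to 0.0362 between ETEC and CON, -0.041 to 0.338 between PET and ETEC and -0.377 to 0.638 between PET and CON, and 5 of 24 library and group pairs were highest for the own number. With the replicate block, GZMA (1.07) and GZMM (0.74) in PET vs ETEC, KLRF1 in ETEC vs CON by permutation (-0.48), GZMM over KLRF1 in ETEC vs CON (-0.60) and GZMA over KLRF1 in PET vs CON (1.52) missed the threshold, and the other 25 results were as before.

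Leaving out 1 library at a time gave -1.26 to -0.86 for GZMA in ETEC vs CON. GZMA in PET vs CON gave -0.0194 (without PET-4) to 0.64, and -0.16 to 0.31 by permutation. GZMA over GZMM in PET vs ETEC gave -0.0169 (without PET-4) to 0.44, GZMA over KLRF1 in PET vs CON 1.24 to 1.73, and GZMM over KLRF1 in ETEC vs CON -0.71 to -0.50. Leaving out ETEC-8 and PET-8, the challenged libraries without USP9Y counts, changed 0 of 12 results. As no CON library has USP9Y counts, this cannot separate USP9Y from the challenge in differences from CON. In the libraries close to a sum, the measured level over the sum fitted without the 3 genes was 0.926 to 1.36 for GZMA, 0.705 to 1.31 for GZMM and 0.500 to 1.45 for KLRF1. KLRF1 is limited by depth, with as few as 5 reads in a library.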
